A study of Homo sapiens with 6 samples.

Results

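HLA-B, HLA-C, HLA-F, CD74, MX2 and XAF1 are 6 of the 1630 genes in an expression table of U87MG, an established human line derived from a glioblastoma. They were taken by gene name, with earlier results of these data known. They are 3 HLA class I heavy chains, the invariant chain of HLA class II and 2 genes known to be induced by interferon. RNA was sequenced from 3 libraries with a short hairpin RNA against CREPT (shCREPT, genotype given as CREPT Knockdown) and 3 libraries with a control hairpin (shControl, genotype given as NC). CREPT, the product of RPRD1B, binds the tail of RNA polymerase II. The series title links it to proliferation and to an immunosuppressive microenvironment in glioblastoma, and the comparison asks which transcripts differ once it is targeted. All libraries come from 1 cell line, the labels give no hairpin sequence or number of hairpins, and they do not say whether the replicates were separate cultures.

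HLA class I molecules carry peptides from inside the cell to its surface, where CD8 T cells and natural killer cells read them. HLA-B and HLA-C are classical heavy chains present on most cells, and HLA-F is a non-classical one. CD74 escorts class II molecules, which professional antigen-presenting cells use, and it also serves as a surface receptor for the cytokine MIF. Type I interferon, of which IFNB1 is one form, binds the receptor made of IFNAR1 and IFNAR2 and switches on many antiviral genes. Among these are MX2, a dynamin-like GTPase that restricts HIV-1, and XAF1, a partner of the apoptosis inhibitor XIAP that favours cell death. Class I genes also respond to interferon and to NF-kappaB.

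The table holds only genes past a threshold that the authors set. All 1630 genes are marked significant, the smallest absolute log2 fold change in the authors' deposited table is 1.0009, and its largest adjusted p is 0.0497. A gene without a row is therefore not shown to be silent or equal in both groups. RPRD1B has no row, so the knockdown itself was not checked here. How the values were normalized and how deep the libraries are is unknown, so levels are compared between libraries and not between genes. Per library the listed values added up to 31893.7 to 33330.8. The astrocyte filament gene GFAP, a marker of glial tumours, was present in every library, at 43.12 to 49.81 in shCREPT and 421.04 to 447.81 in shControl. S100B, another glial marker, read 0.06, 0 and 0.21 in shCREPT, against 3.12, 2.27 and 2.66 in shControl. The other 6 of 8 markers fixed for the line have no row. No row was found for any of 15 microglial, macrophage and monocyte markers, 11 of T and natural killer cells and 8 of B and dendritic cells.

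The bases before the annotated starts of the 3 class I genes and of CD74 are shown because their directions differed. Those of XAF1 are shown for the reason given below. The sequences are those of RefSeq on GRCh38.p14, each the 250 bases upstream of the RefSeq start, read 5′ to 3′ on the gene's own strand. Starts can differ between RefSeq and GENCODE. The HLA-F window lies inside the GENCODE gene, which begins at 29722775. It also lies inside an opposite-strand pseudogene, ENSG00000225864 (29722981 to 29723971). Capitals mark matches, on either strand, to GGGATTCCC (the core of an NF-kappaB-type palindrome), AANNGAAA (the core that interferon regulatory factors bind) and CCAAT (the NF-Y box). These letters were chosen after the sequences had been read. Longer spellings of the interferon regulatory factor repeat, searched earlier, had no match in either XAF1 window, and the XAF1 window was added to those shown after the shorter core had matched in it. The U87MG alleles may differ from the reference, since class I genes are highly variable.
HLA-B, chr6:31357180-31357429, minus strand: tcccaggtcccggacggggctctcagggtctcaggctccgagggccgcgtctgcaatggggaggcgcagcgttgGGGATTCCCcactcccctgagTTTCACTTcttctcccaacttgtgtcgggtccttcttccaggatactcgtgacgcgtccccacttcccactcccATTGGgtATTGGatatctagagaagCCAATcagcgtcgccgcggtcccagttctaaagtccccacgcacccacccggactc
HLA-C, chr6:31272093-31272342, minus strand: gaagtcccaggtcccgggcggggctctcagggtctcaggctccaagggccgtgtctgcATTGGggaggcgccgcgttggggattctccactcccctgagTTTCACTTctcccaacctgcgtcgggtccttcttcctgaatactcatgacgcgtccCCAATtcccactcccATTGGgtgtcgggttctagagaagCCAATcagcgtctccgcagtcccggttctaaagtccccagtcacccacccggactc
HLA-F, chr6:29723184-29723433, plus strand: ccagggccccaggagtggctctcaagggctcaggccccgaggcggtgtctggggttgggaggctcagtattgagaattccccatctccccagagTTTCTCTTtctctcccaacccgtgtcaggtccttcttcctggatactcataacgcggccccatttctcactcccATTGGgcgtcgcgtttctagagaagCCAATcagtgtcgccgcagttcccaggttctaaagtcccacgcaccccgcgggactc
XAF1 (the second of 2 starts that RefSeq lists), chr17:6755796-6756045, plus strand: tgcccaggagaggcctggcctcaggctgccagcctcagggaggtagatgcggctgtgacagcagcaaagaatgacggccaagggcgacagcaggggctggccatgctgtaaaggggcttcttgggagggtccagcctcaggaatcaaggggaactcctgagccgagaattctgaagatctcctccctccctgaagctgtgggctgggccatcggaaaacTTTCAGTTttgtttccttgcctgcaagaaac
CD74, chr5:150412911-150413160, minus strand: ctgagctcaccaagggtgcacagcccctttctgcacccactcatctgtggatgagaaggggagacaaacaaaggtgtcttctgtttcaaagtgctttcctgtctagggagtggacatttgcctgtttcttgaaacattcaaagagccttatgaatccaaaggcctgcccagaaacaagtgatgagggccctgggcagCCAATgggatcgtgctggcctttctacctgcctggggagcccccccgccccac
The windows of HLA-B and HLA-C were 91.9% identical over 246 aligned bases, those of HLA-B and HLA-F 83.7% over 245, and those of HLA-C and HLA-F 82.7% over 243. The exact palindrome core was found in the HLA-B window, 176 to 168 bases before the start, and in none of the other windows shown. Of 35116 promoter windows of the same length, 0.362% hold it. In the same stretch the HLA-C window reads gggattctc and the HLA-F window agaattccc, near matches that the exact search leaves out. Since the letters were chosen after reading, the match does not set HLA-B apart from HLA-C and HLA-F. HLA-B and HLA-C each held the interferon regulatory factor core on the opposite strand (read here as TTTCACTT), from 155 and 151 bases before the start, and HLA-F held it (as TTTCTCTT) from 156 bases before. The XAF1 window shown held it (as TTTCAGTT) 31 to 24 bases before the start. The window of the other XAF1 start (chr17:6755197-6755446), at the gene start of GENCODE, held it (as TTTCCCTT) 93 to 86 bases before and a CCAAT match 47 to 43 bases before. The CD74 window did not hold the core. A match to this core is common, present in 20.307% of all windows. Each class I window held 2 to 4 CCAAT matches and the CD74 window 1, while 32.008% of all windows held at least 1. The searched patterns did not overlap each other in these windows. No sequence is shown for MX2. These letter matches describe the reference sequence and are not evidence of binding.

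The classical class I genes HLA-B and HLA-C and the non-classical HLA-F all rose in shCREPT cells. HLA-B (ENSG00000234745; chromosome 6, 31269491 to 31357188, minus strand, GRCh38 with GENCODE v29 annotation, protein-coding) read 985.05, 958.87 and 1003.31 in the shCREPT libraries, against 340.03, 342.81 and 349.47 in the shControl libraries. The lowest shCREPT value lay 609.4 above the highest shControl value. In bulk RNA, more cells with a transcript and more of it per cell cannot be told apart. The means were 982 ± 22.3 in shCREPT and 344 ± 4.85 in shControl (SD, n = 3 each), a 2.86-fold difference and the largest rise of the 6 genes. On the log2(value + 1) scale the change was 1.51 ± 0.07 (SE; limma across 1184 genes with Benjamini-Hochberg adjustment, adjusted p = 8.16e-06), higher in 3 of 3 libraries.

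HLA-C (ENSG00000204525; chromosome 6, 31268749 to 31272130, minus strand, protein-coding) is the neighbour of HLA-B and encodes the main class I ligand of killer-cell immunoglobulin-like receptors. It read 769.58, 777.88 and 779.41 in shCREPT, against 357.96, 356.32 and 373.59 in shControl. The replicates lay close together in both groups, with means of 776 ± 5.29 in shCREPT and 363 ± 9.53 in shControl (SD, n = 3 each), a 2.14-fold difference. The log2 change was 1.10 ± 0.07 (SE; limma adjusted p = 1.78e-05).

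HLA-F (ENSG00000204642; chromosome 6, 29722775 to 29738528, plus strand, protein-coding) read 86.22, 83.91 and 96.07 in shCREPT, against 51.23, 43.29 and 41.76 in shControl. Its replicates spread more than those of HLA-C relative to their means, and the groups were still 32.68 apart at their nearest values. The means were 88.7 ± 6.46 in shCREPT and 45.4 ± 5.08 in shControl (SD, n = 3 each), 1.95-fold. The log2 change was 0.95 ± 0.11 (SE; limma adjusted p = 0.000167), while the authors' deposited table gives a fold of 2.14.

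Both interferon-induced members rose as well. MX2 (ENSG00000183486; chromosome 21, 41361943 to 41409390, plus strand, protein-coding) read 26.33, 29.69 and 27.61 in shCREPT, against 14.59, 13.3 and 14.37 in shControl. Its means were 27.9 ± 1.70 in shCREPT and 14.1 ± 0.690 in shControl (SD, n = 3 each), or 1.98-fold. The log2 change of MX2 was 0.94 ± 0.09 (SE; limma adjusted p = 5.76e-05). XAF1 (ENSG00000132530; chromosome 17, 6755447 to 6775647, plus strand, protein-coding) read 20.24, 21.6 and 24.54 in shCREPT, against 12.02, 8.41 and 10.6 in shControl. The lowest shControl library of XAF1 was replicate 2, and the groups did not overlap. Its means were 22.1 ± 2.20 in shCREPT and 10.3 ± 1.82 in shControl (SD, n = 3 each), or 2.14-fold. Its log2 change was 1.04 ± 0.14 (SE; limma adjusted p = 0.000405).

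CD74 went the other way, from values near the bottom of the table. CD74 (ENSG00000019582; chromosome 5, 150401637 to 150412929, minus strand, protein-coding) read 0.12, 0.16 and 0.49 in shCREPT, against 1.92, 0.79 and 2.25 in shControl. The shControl libraries differed among themselves by more than the gap of 0.3 between the groups, replicate 2 being the low one. The means were 0.257 ± 0.203 in shCREPT and 1.65 ± 0.766 in shControl (SD, n = 3 each), 6.44-fold lower in shCREPT. CD74 reached 1 in only 2 libraries, under the minimum of 3, and was left out of the limma test. Its log2(value + 1) difference was −1.04 (−0.69 after median-of-ratios rescaling of the libraries), and an exact two-sided permutation test gave p = 0.1, the smallest that 3 against 3 libraries allow. When all listed genes were tested the limma adjusted p was 0.00642. The authors' deposited table lists it down with a log2 fold change of −1.96 and an adjusted p of 0.00744. That value is the log2 of a fold change of 0.256, not a difference of log2(value + 1), so it is not on the scale of −1.04.

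**Figure D1:**
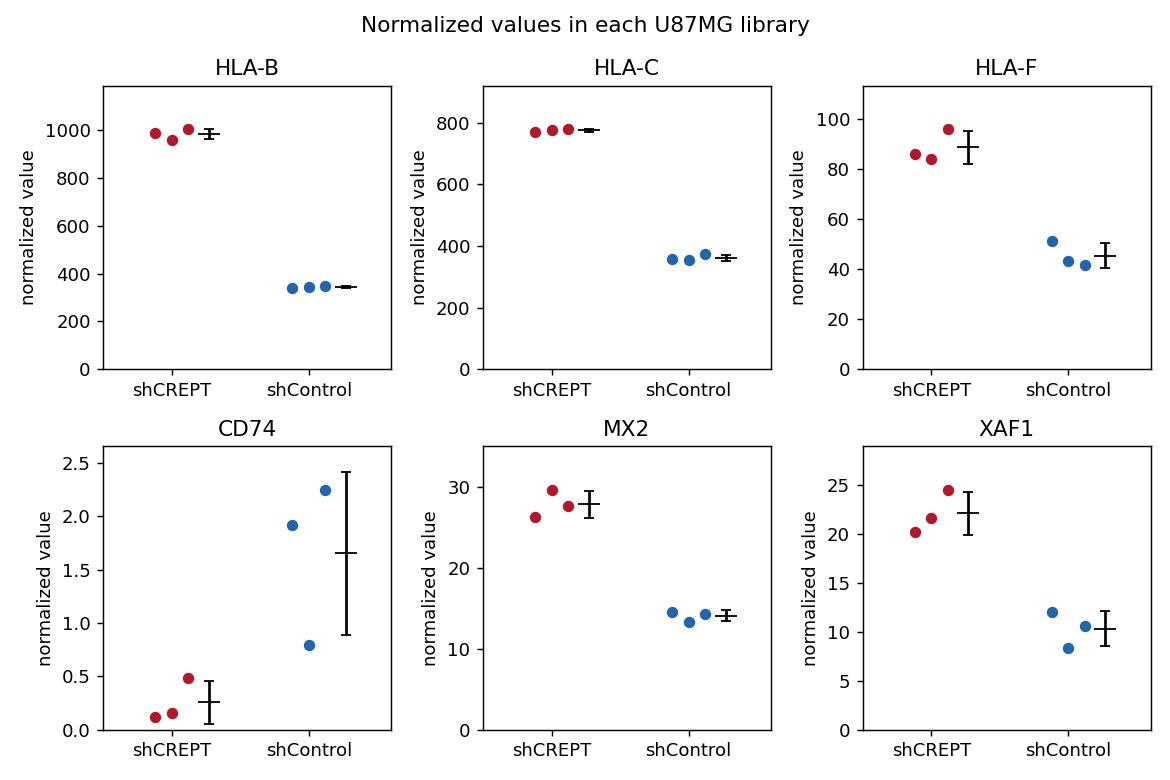
Normalized value of each of the 6 genes (vertical axis, linear from 0, own scale per panel) in the 3 shCREPT libraries (red) and the 3 shControl libraries (blue), with the mean and SD in black. The shCREPT points stand above the shControl points for HLA-B, HLA-C, HLA-F, MX2 and XAF1 and under them for CD74, where the shControl values run from 0.79 to 2.25.

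Of the 6 genes, 5 were tested and all 5 passed an adjusted p of 0.05 as higher in shCREPT. That count is to be read against the table, in which 97.9% of tested genes passed in either direction and 40.6% passed as higher. In all 6 genes the groups did not overlap, as in 93.3% of all listed genes. The median log2 change was 1.04 over the 5 tested genes and −0.76 over all 1184 tested. CD74, which was lower in shCREPT, is in neither median. The 6 genes were also chosen with earlier results of these data known, so the contrast only describes chosen genes. The authors' threshold had already chosen the listed genes for a difference between these groups, so the p-values give the precision of each change within a selected table. With 1 cell line and replicates of unstated origin they cover only how far these libraries vary, and that variation may be technical.

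HLA-C, HLA-F, MX2 and XAF1 stood close to the authors' threshold. Their log2 fold changes in the authors' deposited table are 1.08, 1.10, 1.03 and 1.10, against 1.49 for HLA-B, and 90 of the 657 genes that the authors marked up have a log2 fold change no higher than that of XAF1. Genes of the same pathway with a slightly smaller rise would have no row.

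Ratios between genes within a library do not change when a library is scaled by a single factor. HLA-B over HLA-C was 0.36, 0.30 and 0.36 on the log2 scale in shCREPT, against −0.07, −0.06 and −0.10 in shControl. The ratio was thus higher in every shCREPT library, by 0.42 on the log2 scale or 1.33-fold on average. HLA-B also gained on HLA-F (by 0.54), MX2 (by 0.53) and XAF1 (by 0.41) with no overlap of groups. In the 6 pairs without HLA-B the groups overlapped and the differences ran from −0.14 to 0.13, with SDs within a group of 0.06 to 0.25. The 10 pairs were tested by an exact two-sided permutation test, in which the 4 HLA-B pairs reached the smallest possible p of 0.1 (Benjamini-Hochberg adjusted p = 0.25) and the others gave 0.2 to 1. The 4 pairs share HLA-B and are not independent. HLA-B had the largest rise of the 6 genes, so its gain on the others restates the changes given above. Ratios between other listed genes were not computed, so no share without overlap can be set beside these pairs.

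**Figure D2:**
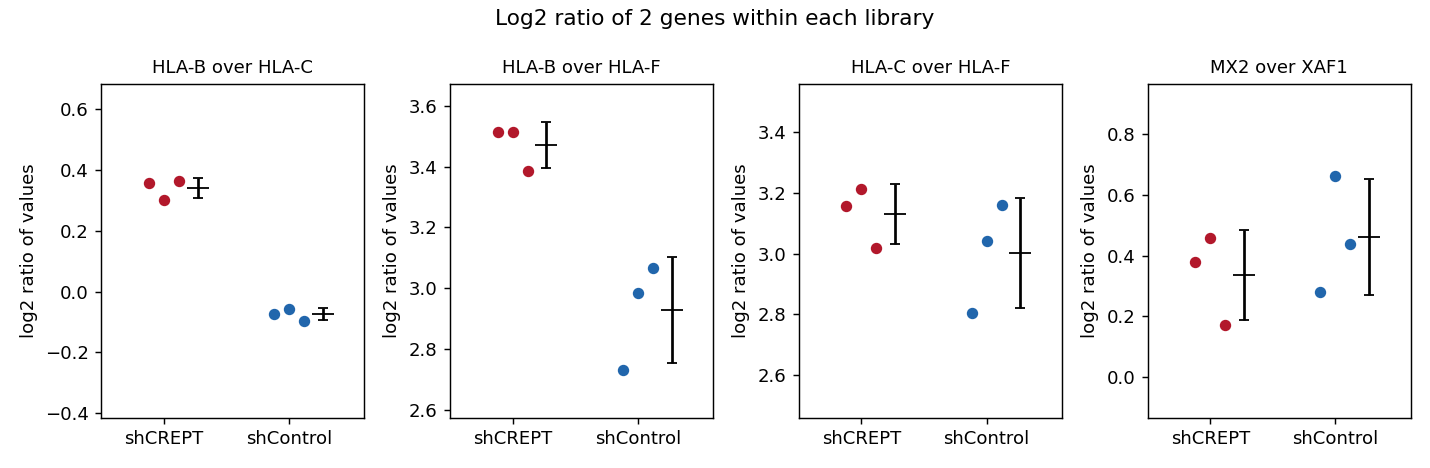
Log2 ratio of the normalized values of 2 genes within each library (vertical axes, all spanning the same range), for shCREPT (red) and shControl (blue), with mean and SD in black; the height of a ratio also carries the unknown length scaling of the values. HLA-B over HLA-C separates the groups (0.30 to 0.36 in shCREPT and −0.10 to −0.06 in shControl), while HLA-C over HLA-F and MX2 over XAF1 overlap.

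Reads can be shared between class I genes, whose sequences are alike. In GENCODE v29, 2.5% of the 50-base windows of the longest HLA-B coding transcript also occur in a transcript of another gene, mostly HLA-C, against 6.7% for HLA-C and 1.7% for HLA-F. At 100 bases the shares were 0%, 0.3% and 0%. The read length and the handling of reads with several matches are not stated. The annotated exons of HLA-B and HLA-C share 35 bases on the same strand. HLA-B also shares 542 exonic bases, 17.76% of its own, with an opposite-strand pseudogene. Exons of HLA-F share 535 bases with the opposite-strand HLA-F-AS1 and 701 with an opposite-strand pseudogene, ENSG00000225864, whose row also rose (3.62 ± 0.716 in shCREPT and 1.47 ± 0.232 in shControl; SD, n = 3 each). XAF1 shares 2535 exonic bases, 38.32% of its own, with PRAL on the opposite strand. Whether reads were assigned by strand is not stated, so reads of such partners cannot be told apart from those of HLA-B, HLA-F and XAF1. For CD74 and MX2 no exonic overlap was annotated.

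The rest of the class I pathway gave no further row. The list held 23 genes for class I chains, peptide supply and loading, B2M, TAP1, TAP2, PSMB8, PSMB9 and NLRC5 among them. The 3 with a row were HLA-B, HLA-C and HLA-F, and all 3 rose (median log2 change 1.10). They are the members already described, and 40.6% of all tested genes passed as higher. The other 20, HLA-E among them, have no row, so no change of theirs past the authors' threshold is listed. Of 18 further ligands and relatives that natural killer or T cells meet, 1 had a row. This was FCGRT, the class I-like receptor that recycles IgG, which fell to 4.82 ± 1.73 in shCREPT, against 13.5 ± 1.32 in shControl (SD, n = 3 each; log2 change −1.37 ± 0.23, SE; limma adjusted p = 0.00116). Under a median-of-ratios rescaling its log2 change was −0.59 (limma adjusted p = 0.0627).

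CD74 was the 1 gene of 19 in the class II list with a row. The class II activator CIITA and the class II chains such as HLA-DRA have none. From the list of MIF and its receptors, CD74, CXCR4 and ACKR3 had rows, and all 3 are down in the authors' deposited table, as are 59.7% of all its genes. CXCR4, a chemokine receptor that pairs with CD74, read 0.03, 0 and 0 in shCREPT, against 0.8, 0.58 and 0.91 in shControl, too low to be tested. ACKR3, an atypical receptor that binds CXCL12 and MIF, fell to 3.26 ± 0.722 in shCREPT, against 11.2 ± 0.933 in shControl (SD, n = 3 each; log2 change −1.53 ± 0.14, SE; limma adjusted p = 5.48e-05; −0.78 after median-of-ratios rescaling). MIF and CD44 have no row.

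Beside the rises of MX2 and XAF1, other genes of the interferon list fell. Of its 54 genes, 6 had a row: MX2 and XAF1 rose, and CXCL10, GBP4 and IFITM2 fell. CXCL9 reached the minimum of 1 through its shControl values alone, so it is given by its values and not counted. Of all genes tested, 40.6% passed as higher and 57.3% as lower, and the split of the list is not far from that. Those shares keep genes that reached the minimum through shControl alone, as CXCL9 did, so list and table are counted by unlike rules. The other 48, among them MX1, ISG15, IFIT1 and OAS1, have no row.

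CXCL10, a chemokine that draws CXCR3-bearing T cells, read 248.65, 259.78 and 288.73 in shCREPT, against 599.86, 574.85 and 513.79 in shControl (log2 change −1.08 ± 0.10, SE; limma adjusted p = 6.39e-05; −0.20 and adjusted p = 0.123 after median-of-ratios rescaling). CXCL9, a ligand of the same receptor, read 0.56, 0.52 and 0.63 in shCREPT, against 1.55, 2.14 and 2.7 in shControl (log2 change −0.98 ± 0.14, SE). For both chemokines every shCREPT library lay under every shControl library, and in 93.3% of all listed genes the groups likewise did not overlap. IFITM2, a membrane protein that blocks virus entry, fell to 65.2 ± 6.57 in shCREPT, against 190 ± 2.84 in shControl (SD, n = 3 each; log2 change −1.54 ± 0.10, SE; limma adjusted p = 1.58e-05). GBP4, a guanylate-binding GTPase, fell to 1.79 ± 0.646 in shCREPT, against 6.48 ± 0.548 in shControl (SD, n = 3 each; log2 change −1.45 ± 0.17, SE; limma adjusted p = 0.000181).

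A type I interferon and a chain of its receptor were lower in shCREPT in the values as deposited. Of all genes tested, 57.3% passed as lower. IFNB1, the gene of interferon beta, read 68.95, 69.87 and 74.28 in shCREPT, against 189.8, 192.11 and 173.94 in shControl. Its log2 change was −1.37 ± 0.08 (SE; limma adjusted p = 1.39e-05), with shCREPT 2.61-fold lower. IFNAR2, a chain of the type I interferon receptor, read 5.91, 5.05 and 5.16 in shCREPT, against 12.08, 10.41 and 11.48 in shControl (log2 change −0.95 ± 0.10, SE; limma adjusted p = 9.11e-05). After median-of-ratios rescaling IFNAR2 no longer passed (−0.17, limma adjusted p = 0.144). These were the 2 genes with a row among 26 interferon ligands, receptors and signalling proteins; IFNAR1, JAK1, TYK2 and IRF3 have none. None of the 10 partners of XAF1 in apoptosis, XIAP and BIRC5 among them, has a row.

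**Figure D3:**
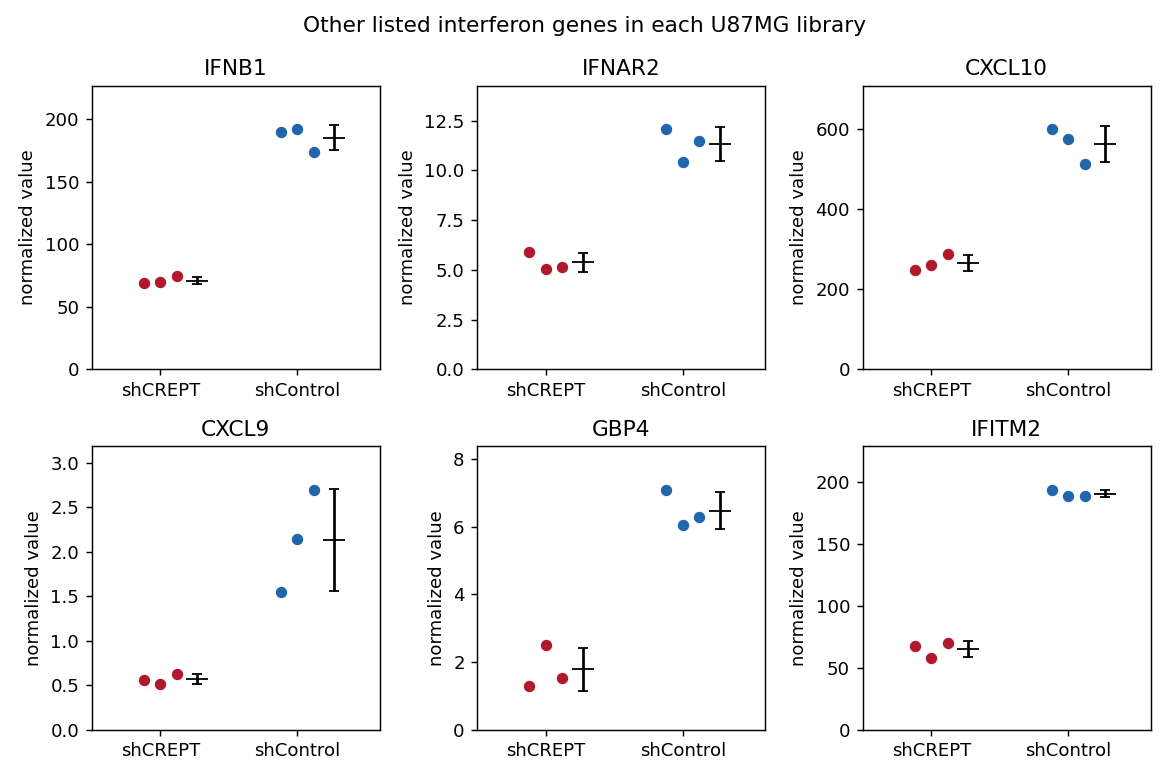
Normalized value of the other 6 listed interferon genes (vertical axis, linear from 0, own scale per panel) in the 3 shCREPT libraries (red) and the 3 shControl libraries (blue), with the mean and SD in black. In each panel the shCREPT points lie under the shControl points, as for IFNB1 (68.95 to 74.28 in shCREPT and 173.94 to 192.11 in shControl).

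The directions held under other scalings of the libraries, and the sizes did not. A median-of-ratios rescaling over the listed genes lifted the shCREPT libraries relative to shControl by 0.89 (log2, ahead of the pseudocount). It moved the median log2 change of all tested genes to −0.13 and the calls to 57% higher and 43% lower, from 41.5% and 58.5%. Such rescaling takes most genes as unchanged, but every gene here was selected for a difference, and 59.7% are marked down by the authors. The rescaling therefore draws the median toward 0 by construction, and the sizes under it are not better estimates. The rises grew under it, to 2.39 for HLA-B, 1.98 for HLA-C, 1.82 for HLA-F, 1.77 for MX2 and 1.86 for XAF1. The falls shrank, to −0.49 for IFNB1, −0.66 for IFITM2 and −0.77 for GBP4, which still passed, and to −0.52 for CXCL9. IFNAR2 and CXCL10 no longer passed under it, as given above. Quantile normalization gave rises of 0.99 to 1.69 for the 5 genes and changes of −1.36 to −0.75 for the other 6.

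**Figure D4:**
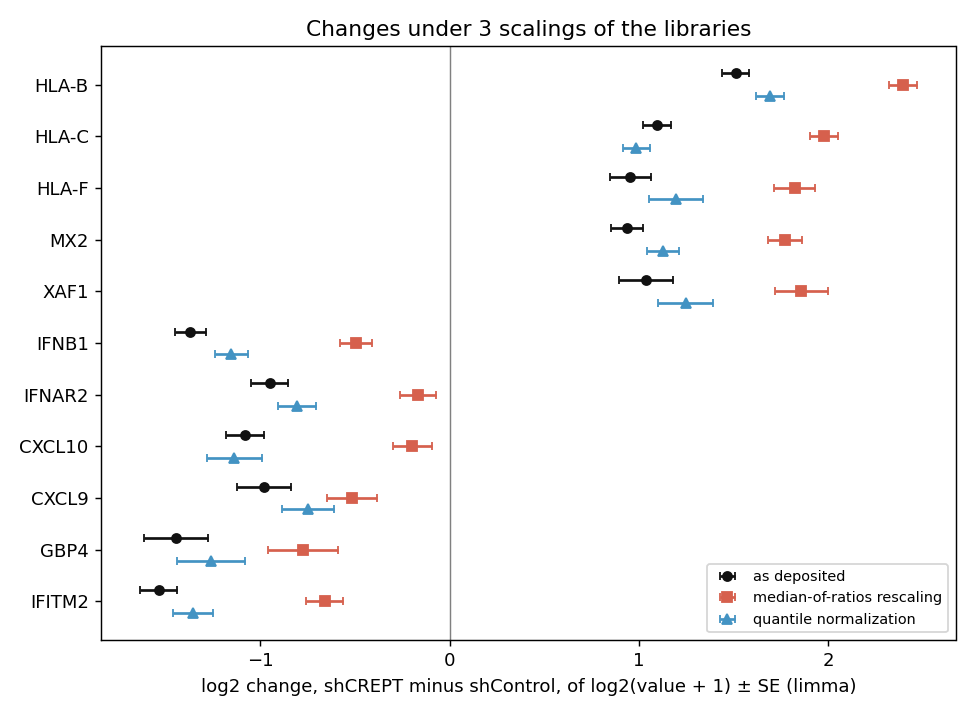
Log2 change (shCREPT minus shControl of log2(value + 1), with SE from limma, n = 3 libraries each) of 5 rising genes and 6 falling interferon genes, with values as deposited (black circles), after median-of-ratios rescaling (red squares) and after quantile normalization (blue triangles). No gene crosses 0, and the red squares lie to the right of the black circles for every gene, with IFNAR2 (−0.17) and CXCL10 (−0.20) nearest to 0.

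Genes on both sides of the comparison lie near HLA-B and HLA-C. Within 1 Mb of HLA-B, 9 other genes had a row, of which the authors marked 4 up (HLA-C among them) and 5 down, near the 40.3% up and 59.7% down of all listed genes. CFB, the complement factor B gene of the adjoining class III region, read 41.96, 39.98 and 42.51 in shCREPT, against 216.21, 210.39 and 217.84 in shControl. HCP5, a noncoding RNA gene within the class I region itself, read 0.02, 0.27 and 0.01 in shCREPT, against 0.77, 0.43 and 0.58 in shControl. CFB and HCP5 were named after their values were seen, and both go against HLA-B. The neighbours up beside HLA-C were TNXB, ENSG00000272540 and ENSG00000285565. MX2 had no listed gene within 1 Mb; its adjacent paralogue MX1 has no row. Of 6 listed genes within 1 Mb of CD74, the authors marked 4 down, as CD74 is, and 2 up, the adjacent TCOF1 among these. Near XAF1 they marked 4 up and 1 down, and near HLA-F 2 up and 0 down.

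The genes whose 6 values most resembled those of each member were found by the root mean square distance of log2(value + 1) after centring each gene, over 1287 named genes and the 6 libraries. The nearest to HLA-B was CD70, the ligand of CD27, a TNF receptor family member on T cells, at a distance of 0.05. CD70 read 837.51, 800.93 and 842.55 in shCREPT, against 312.39, 305.08 and 310.11 in shControl. The nearest to MX2 was CXCL8, a neutrophil chemokine, at 0.05, with 10.3, 11.44 and 9.84 in shCREPT, against 5.16, 4.67 and 5.39 in shControl. For HLA-C it was KLHL29 (0.03), for HLA-F the DNA repair gene EME1 (0.07), for XAF1 MAMDC2 (0.09) and for CD74 the zinc finger gene PRDM16 (0.13). Since all these genes were selected for the same 2 groups, such likeness is a description.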

How the data were processed

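The 6 libraries were made from total RNA with NEBNext Ultra reagents, per the labels' protocols; HISAT2, HTSeq and GRCh38 are named, without versions, in the submitters' processing notes. Per the file headers, the authors deposited 1 signal value per gene and library, a fold change (a ratio), the log2 of it and p-values. The signal values have 2 decimals. Low values took 28 to 29 of the 29 hundredths from 0.01 to 0.29, so no read step was seen and no count test was run.

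Values were transformed as log2(value + 1), which understates changes of low genes. Genes with at least 1 in at least 3 libraries (1184; 446 left out) were tested with limma 3.58.1 (R 4.3.3), without covariates, with Benjamini-Hochberg adjustment at 0.05. This step was tested on simulated data in which most genes did not differ. Here 97.9% of tested genes passed, so that check gives no error rate for this table. Single values used exact permutation tests (scipy 1.17.1, Python 3.11.15). No library repeated another (at least 96.0% of genes differed in every pair). Coordinates came from GENCODE v29 (1549 identifiers matched) and promoter windows from RefSeq GRCh38.p14 (5 of the 6 genes matched), aligned with Biopython 1.88. The 6 genes and the gene lists were chosen with earlier results of these data known. Named genes were the 6, every list gene with a row, and the gene most like each of the 6. Alternatives were pseudocounts of 0.1 and 5, no filter, a minimum of 10, 2 rescalings, limma with trend and robust options, a replicate block, and each library left out.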

Additional observations from a re-analysis of the deposited data

How the results depend on the processing

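HLA-B, HLA-C, HLA-F, MX2 and XAF1 kept their direction and passed under all 14 alternatives, with log2 changes of 1.50 to 2.39, 0.99 to 1.98, 0.90 to 1.82, 0.78 to 1.77 and 0.83 to 1.86; without 1 library at a time they ran from 1.50 to 1.53, 1.08 to 1.12, 0.90 to 1.04, 0.89 to 0.97 and 0.91 to 1.14. CD74, near 0, had a log2 difference of −2.32 with a pseudocount of 0.1 and −0.33 with 5, by construction, and −1.31 to −0.88 without 1 library. A minimum of 10 left 487 genes to test and called 485, 214 higher and 271 lower, and median-of-ratios rescaling called 371 lower; the other counts lay within 1.5 times of 1159 changed, 481 higher and 678 lower (1137 to 1152 changed without 1 library). Of the other list genes with a row, FCGRT, IFNAR2 and CXCL10 lost their call under that rescaling, whose factors raise shCREPT against shControl by 0.89 (log2). The genes named for their likeness to a member were not followed under the alternatives. Deviations of same-numbered libraries correlated at −0.109, 0.018 and −0.179, and those of other-numbered libraries at −0.112 to 0.199. There was thus no sign of pairing by number, and pairing in another order was not tested. The replicate block called 1156 genes and changed no call of a member or list gene. No bound from depth can be given.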
